A study of Homo sapiens with 6 samples.

Results

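The E proteins TCF3, TCF4 and TCF12 and the ID inhibitors ID1, ID2 and ID3 were followed in Raji cells in which OBF1 had been lowered. The 6 genes were chosen by name, as the TCF3 and ID3 axis of Burkitt lymphoma, and matched by gene identifier to 6 of the 23459 rows of the count table. Raji is an established line from a Burkitt's lymphoma, a tumour of germinal centre B cells. One group of 3 libraries carried the hairpin OBF1sh1 against OBF1, the B cell coactivator encoded by POU2AF1. The control group of 3 libraries carried SHC002, a non-target hairpin, in the same kind of lentiviral vector. Both groups were infected for 5 days and then selected for 7 days with 3 μg/ml puromycin. There was 1 hairpin per group and no label ties the libraries to separate cultures, so p-values measure only the spread between libraries, which may be technical.

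E proteins are basic helix-loop-helix transcription factors that bind E-box DNA (CANNTG) as dimers with each other or with tissue-restricted partners. ID proteins have the helix-loop-helix but no basic region, so a dimer with an ID protein cannot bind DNA. In B cells, TCF3 (E2A, which encodes the splice forms E12 and E47) drives lineage commitment and the germinal centre state, TCF4 is E2-2 and TCF12 is HEB. ID3 is itself a target of TCF3, which closes a negative feedback loop, and both genes are recurrently mutated in Burkitt lymphoma. The TCF4 described here is not TCF7L2, a high mobility group factor that shares the older name TCF4. Counts per gene do not separate E12 from E47, or the many TCF4 isoforms.

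ID2 and ID3 are the ID genes that were detected, and they moved in opposite directions. The 250 bases before the start of each are shown from RefSeq for this contrast, with E-boxes in capitals. They are chr2:8681806-8682055 on the plus strand for ID2 and chr1:23559502-23559751 on the minus strand for ID3, both in GRCh38.p14, 5′ to 3′.
ID2: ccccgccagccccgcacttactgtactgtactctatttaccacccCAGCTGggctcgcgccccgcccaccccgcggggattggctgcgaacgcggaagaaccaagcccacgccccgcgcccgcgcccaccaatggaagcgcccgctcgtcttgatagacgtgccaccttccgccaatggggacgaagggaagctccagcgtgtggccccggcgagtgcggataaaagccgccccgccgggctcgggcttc
ID3: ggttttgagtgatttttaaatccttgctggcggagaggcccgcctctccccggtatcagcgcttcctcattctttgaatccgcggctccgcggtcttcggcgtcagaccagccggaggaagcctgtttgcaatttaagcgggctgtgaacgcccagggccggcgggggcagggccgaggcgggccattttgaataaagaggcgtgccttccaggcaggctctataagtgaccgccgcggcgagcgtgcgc
Windows of 300 bases, 250 before and 50 after a start, were searched on both strands for CANNTG, for its E protein forms CAGGTG and CAGCTG (which are also counted under CANNTG), and for the octamer ATGCAAAT bound by the Oct factors with which OBF1 works. The ID2 window held 1 E-box, CAGCTG, beginning 205 bases before the start. The single windows of ID3, ID1 and TCF3 held no E-box. Of the 10 windows of TCF4, 7 held an E-box, and of the 5 of TCF12, 2 did. None of these TCF4 and TCF12 matches was CAGGTG or CAGCTG, and no window of the 6 genes held the octamer. Among 35114 windows of all genes, 68.7% held CANNTG, 20.6% CAGGTG, 17.9% CAGCTG and 1.77% the octamer. These matches describe the letters only.

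Libraries held between 29569281 and 32612429 counts. The hairpin's target was lower in OBF1 shRNA libraries, with POU2AF1 at 241 to 244 CPM (counts per 1000000, on library sizes scaled by TMM, the trimmed mean of M values), against 512 to 516 CPM in control libraries. Of all 12010 tested genes 75.4% were called (edgeR quasi-likelihood test, adjusted p under 0.05), 37.5% higher and 37.9% lower. Of 8 B cell markers, 7 rose and 1 fell. All 8 were detected in both groups, with sums of 4423 to 4479 CPM in OBF1 shRNA and 2672 to 2745 CPM in control libraries. In these bulk libraries a change in the share of cells that express a gene and a change in its RNA per cell cannot be told apart.

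Of the 6 genes, 5 passed the count filter and ID1 did not. ID2 and TCF4 rose and TCF3, TCF12 and ID3 fell, so that all 5 were called. With 75.4% of all tested genes called, a call is the usual case in this comparison. The size of the changes differed more: ID2 changed by more than 1.5-fold and the other 4 did not, while 23.3% of tested genes were called at that size. The absolute log2 fold change of ID2 exceeded that of 87.4% of tested genes. For TCF4, TCF12, ID3 and TCF3 that share was 40.2%, 39.0%, 37.4% and 20.7%.

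**Figure D1:**
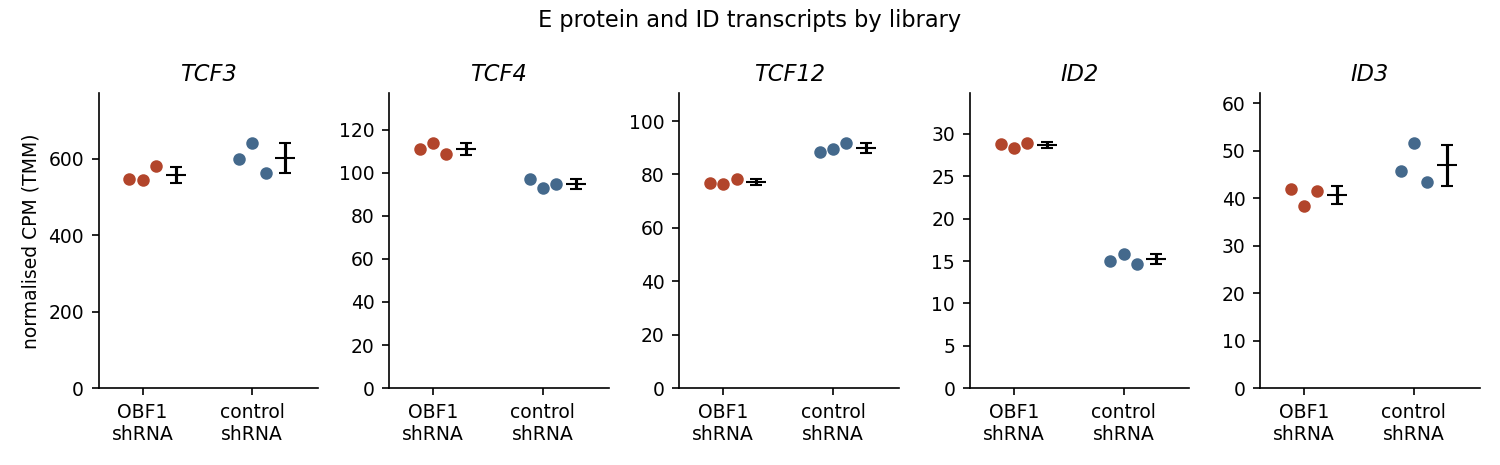
Normalised CPM of the 5 tested genes in each library, OBF1 shRNA (red) left of control shRNA (blue), with the mean and SD of 3 libraries beside the points. The groups are well apart for ID2, near each other for ID3, and overlap for TCF3.

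TCF3, the main E protein of B cells, fell slightly, by a call that rested on single libraries. It held 546, 543 and 581 CPM in OBF1 shRNA libraries, against 599, 642 and 563 CPM in control libraries. The highest OBF1 shRNA library lay above the lowest control library, so the groups overlapped in CPM, whereas they did not overlap for 76.6% of tested genes. The log2 fold change was -0.11 (SE 0.038, 95% interval -0.19 to -0.032, edgeR adjusted p = 0.0129). Control shRNA replicate 2 was the highest library, and without it the value was -0.058 and not called (edgeR adjusted p = 0.0871). Leaving out OBF1 shRNA replicate 1 gave -0.096 (edgeR adjusted p = 0.0691). Leaving out OBF1 shRNA replicate 2 gave -0.091 (edgeR adjusted p = 0.0608). With library sizes alone in place of TMM, which moved the log2 fold changes of all genes by a median of -0.11, TCF3 was at -0.22 (edgeR adjusted p = 2.36e-05).

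TCF4, known besides its B cell role as the regulator of plasmacytoid dendritic cells, rose slightly. Its values were 111, 114 and 109 CPM in OBF1 shRNA libraries, against 97.1, 92.7 and 94.6 CPM in control libraries. Every OBF1 shRNA library was above every control library. The log2 fold change was 0.23 (SE 0.032, 95% interval 0.16 to 0.30, edgeR adjusted p = 3.62e-06). With library sizes alone it was 0.12 and still called (edgeR adjusted p = 0.00313). Beside this gain, 3 plasmacytoid dendritic cell markers were tested and all rose, where 37.5% of all tested genes were called higher. The 9 listed markers summed to 326 to 343 CPM in OBF1 shRNA and 138 to 148 CPM in control libraries. SPIB, which B cells also express, held most of that, at 318 ± 9.31 CPM in OBF1 shRNA and 140 ± 5.69 CPM in control libraries (SD, n = 3 each). The other two rose by more than TCF4 did. PLD4, an endosomal nuclease, was at 13.2 ± 0.292 CPM in OBF1 shRNA and 0.964 ± 0.0459 CPM in control libraries (SD, n = 3 each), 13.6-fold higher (edgeR adjusted p = 7.07e-16). LILRA4, a surface receptor, was at 1.49 ± 0.312 CPM in OBF1 shRNA and 0.197 ± 0.0326 CPM in control libraries (SD, n = 3 each), 7.45-fold higher (edgeR adjusted p = 6.25e-08). Its control libraries were under the minimum count of 10, so LILRA4 passed the count filter only through the OBF1 shRNA libraries. CLEC4C, the defining surface marker, GZMB, PTCRA and LAMP5 had no count in any library, and IL3RA and NRP1 had 1 and 4 counts in all. The part of these markers in the TCF4 value was not tested.

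TCF12, the E protein best known from early T cells and often paired with TCF3, fell. It held 76.9, 76.3 and 78.5 CPM in OBF1 shRNA libraries, against 88.4, 89.6 and 91.9 CPM in control libraries, with no overlap. The log2 fold change was -0.22 (SE 0.032, 95% interval -0.29 to -0.15, edgeR adjusted p = 6.62e-06). With TMM scaling TCF12 and TCF4 changed by similar amounts in opposite directions, whereas with library sizes alone TCF12 was at -0.33 and TCF4 at 0.12.

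ID2, the inhibitor known for its role in innate lymphoid and dendritic cells, showed the widest separation. It held 28.8, 28.3 and 29.0 CPM in OBF1 shRNA libraries, against 15.0, 15.9 and 14.7 CPM in control libraries. The lowest OBF1 shRNA library was far above the highest control library. ID2 rose 1.89-fold (log2 fold change 0.92, SE 0.052, 95% interval 0.81 to 1.02, edgeR adjusted p = 1.78e-11), and over the 14 alternatives the log2 fold change stayed between 0.81 and 0.95. Markers of T and NK cells, where ID2 is high, summed to 0.985 to 1.18 CPM in OBF1 shRNA and 0.192 to 0.298 CPM in control libraries. Of the 14 listed, 12 had rows, 1 was tested and was higher (NKG7), and CD3D, CD2, GNLY and NCAM1 had no count. NKG7 averaged 0.789 CPM in OBF1 shRNA libraries, most of the sum there, and 0.144 CPM in control libraries. The control libraries were under the minimum count of 10, so NKG7 passed the count filter only through the OBF1 shRNA libraries. Over all tested genes 37.5% were called higher.

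ID3, the inhibitor that TCF3 induces, fell by a small amount. It held 41.9, 38.4 and 41.5 CPM in OBF1 shRNA libraries, against 45.6, 51.7 and 43.4 CPM in control libraries. The groups did not overlap, but the gap between the nearest libraries was smaller than the range within either group. The log2 fold change was -0.21 (SE 0.056, 95% interval -0.33 to -0.092, edgeR adjusted p = 0.00256). Control shRNA replicate 2 held the highest ID3 as well as the highest TCF3, and without it the ID3 value was -0.13 (edgeR adjusted p = 0.0149). With library sizes alone it was -0.32.

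ID1 was at the limit of detection. It had 3, 0 and 2 counts in OBF1 shRNA libraries, against 0, 2 and 0 counts in control libraries. A count of 0 allows up to 3 counts, which for ID1 is 0.196 to 0.229 TPM (transcripts per 1000000, from counts divided by gene length), for counting error only. No fold change is given, as both groups are at or under that limit. ID4, the remaining gene of the ID family, had 0 counts in each library, which allows up to 0.0624 to 0.0727 TPM.

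**Figure D2:**
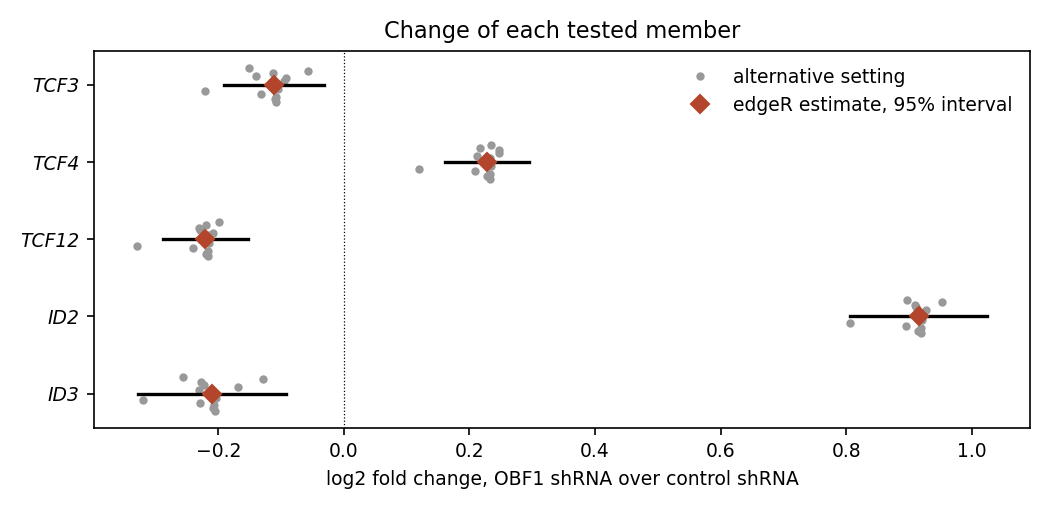
Log2 fold change, OBF1 shRNA over control shRNA, of the 5 tested genes; diamonds are the edgeR estimates, black lines their 95% intervals and grey points the 14 alternative settings. ID2 stands near 0.92 and the other 4 lie between -0.22 and 0.23, with no point across zero.

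Gene length moved with the direction of change over the whole table. Tested genes were split into 4 classes of about equal number by their deposited length. In the shortest class (up to 2226 bases), the median log2 fold change was 0.12 and 45.9% were called higher. In the longest class (from 5438 bases) the median was -0.11 and 30.4% were called higher. ID2 and ID3, of 1364 and 1239 bases, belong to the shortest class. There ID2 rose, as the median did but by much more (0.92), and ID3 fell. TCF4 (16975 bases) and TCF12 (5502 bases) belong to the longest class. There TCF12 fell, as the median did but by more (-0.22), and TCF4 rose. TCF3 (4934 bases), which fell, lies in the class with a median of -0.041. The part of this trend in the members' values was not tested.

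Levels of different genes were compared per length, as TPM. TCF3 was by far the most abundant in both groups, at 287 ± 8.95 TPM in OBF1 shRNA and 354 ± 19.7 TPM in control libraries (SD, n = 3 each). ID3 came next, at 83.4 ± 3.22 TPM in OBF1 shRNA and 110 ± 8.69 TPM in control libraries (SD, n = 3 each). ID2 followed TCF12 in control libraries, and their order was turned in OBF1 shRNA libraries. ID2 averaged 53.6 ± 0.118 TPM and TCF12 35.7 ± 0.288 TPM in OBF1 shRNA libraries, and in control libraries they averaged 32.4 ± 0.930 and 47.6 ± 1.17 TPM (SD, n = 3 each). TCF4 was lowest, at 16.7 ± 0.559 TPM in OBF1 shRNA and 16.3 ± 0.573 TPM in control libraries (SD, n = 3 each). Neighbours in each of these orders did not overlap between libraries of the same group. The deposited length of TCF4 is long, so its level per length is low although its CPM was above that of TCF12.

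TPM is read here within libraries and not for the size of a change, because its scaling differs. The TCF4 groups overlapped in TPM and the TCF3 groups did not, the reverse of CPM. In TPM the log2 ratio of the group means was 0.036 for TCF4, -0.30 for TCF3, -0.41 for TCF12, -0.40 for ID3 and 0.72 for ID2. Length-scaled CPM (RPKM on the TMM-scaled library sizes) gave 0.23, -0.11, -0.22, -0.21 and 0.92 in the same order.

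Ratios within a library do not depend on its scaling, and are given as a description without a test. TCF3 held most of the E protein pool in both groups, at 84.4%, 84.3% and 85.1% of its summed TPM in OBF1 shRNA libraries, against 84.8%, 85.7% and 83.7% in control libraries. Within the small remainder, there were 46.7, 48.4 and 44.9 TCF4 transcripts per 100 of TCF12 in OBF1 shRNA libraries, against 35.6, 33.6 and 33.4 in control libraries. That level rests on the deposited lengths, 16975 bases for TCF4 and 5502 bases for TCF12. The ID pool changed more. ID2 stood at 62.4, 67.0 and 63.5 transcripts per 100 of ID3 in OBF1 shRNA libraries, against 29.9, 27.9 and 30.8 in control libraries. ID2 thus made up 38.4% to 40.1% of the ID transcripts in OBF1 shRNA libraries, against 21.8% to 23.5% in control libraries.

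Set against the E proteins, the summed ID transcripts came to 42.0, 39.6 and 39.6 per 100 in OBF1 shRNA libraries, against 33.4, 35.2 and 33.6 in control libraries. The groups did not overlap, and the ratio of their means was 1.19. Summed ID TPM alone overlapped, at 137 in OBF1 shRNA and 143 in control libraries (means, n = 3 each). Summed E protein TPM did not, at 340 in OBF1 shRNA and 418 in control libraries. Unlike their ratio, both sums depend on the TPM scaling and are not read for the size or direction of a change. On the TMM-scaled library sizes TCF3, which holds most of the E sum, overlapped. It was at 110 to 118 RPKM in OBF1 shRNA and 114 to 130 RPKM in control libraries. ID2 and ID3 lie in the shortest length class (median 0.12 on the log2 scale). TCF3 lies in a longer class (-0.041), and TCF4 and TCF12 in the longest (-0.11). The part of gene length in this ratio was not tested. For the pair of ID3 and TCF3 alone the groups overlapped. There were 30.6, 28.2 and 28.4 ID3 transcripts per 100 of TCF3 in OBF1 shRNA libraries, against 30.3, 32.1 and 30.7 in control libraries. The wider gap of the summed ratio thus came with ID2, the ID gene that rose.

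**Figure D3:**
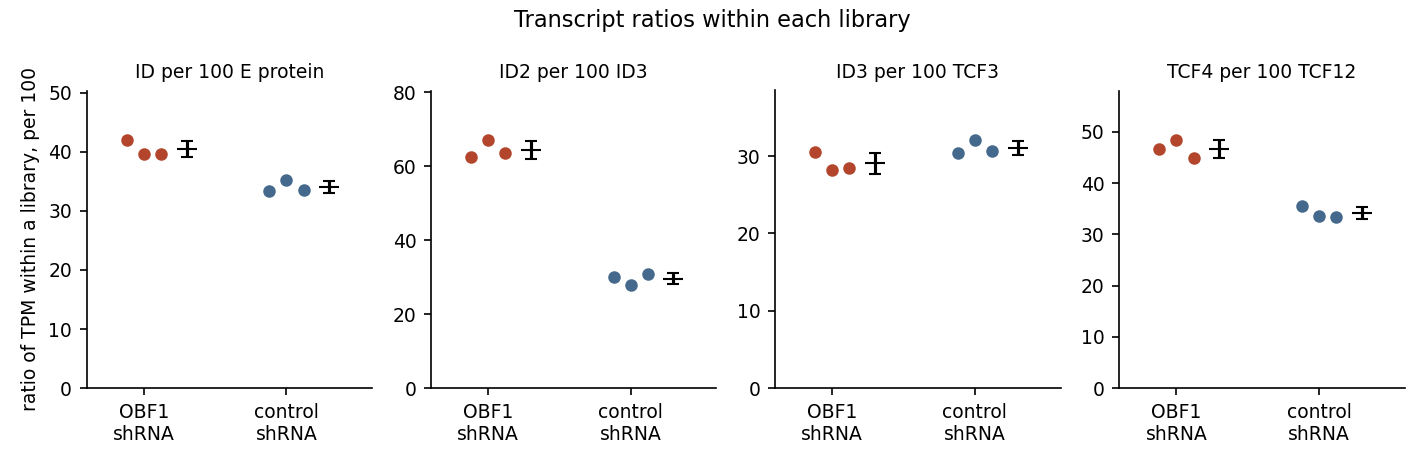
Ratios of TPM within each library, per 100 transcripts of the second gene or group, OBF1 shRNA (red) left of control shRNA (blue), with mean and SD of 3 libraries. ID2 per 100 ID3 and TCF4 per 100 TCF12 separate the groups, as does the summed ID to E ratio, while ID3 per 100 TCF3 overlaps.

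Partners and cofactors of the E proteins moved in both directions. Of 28 class II basic helix-loop-helix genes, which need an E protein to bind DNA, 20 had no count and 2 were tested. LYL1, a blood cell member, rose to 6.25 ± 0.817 CPM in OBF1 shRNA libraries, against 4.06 ± 0.547 CPM in control libraries (SD, n = 3 each, edgeR adjusted p = 0.000123). NHLH1, known from neurons, was at 0.102 ± 0.0914 CPM in OBF1 shRNA and 0.829 ± 0.0555 CPM in control libraries (SD, n = 3 each), a called fall at very low level (edgeR adjusted p = 8.01e-06). MSC, the ABF-1 partner found in activated B cells, had 2 counts over all libraries. Of the 15 cofactors and stability factors, all tested, 4 rose and 9 fell, where 37.5% of all tested genes were called higher and 37.9% lower. Their median log2 fold change was -0.12, against -0.0071 over all tested genes. USP1, which removes ubiquitin from ID proteins and so stabilises them, fell by 0.51 on the log2 scale (SE 0.023), and the acetyltransferase CREBBP fell by 0.47 (SE 0.027), while the acetyltransferase KAT2B rose by 0.64 (SE 0.042). LMO4, a LIM-only adaptor, was 2.04-fold lower, at 19.9 ± 0.549 CPM in OBF1 shRNA and 40.7 ± 1.47 CPM in control libraries (SD, n = 3 each). Its relative LMO2, a germinal centre marker that bridges E protein complexes with LDB1, rose to 1.89 ± 0.161 CPM in OBF1 shRNA libraries, against 0.270 ± 0.0149 CPM in control libraries (SD, n = 3 each), still a low level. Of the zinc finger repressors that compete for E-boxes, ZEB2 rose by 0.63 (SE 0.054) on the log2 scale and ZEB1 fell by 0.29 (SE 0.043). SNAI3 rose by 1.64 (SE 0.23) at a low level. It was at 1.36 ± 0.111 CPM in OBF1 shRNA and 0.436 ± 0.0379 CPM in control libraries (SD, n = 3 each).

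Upstream of the ID genes, BMP receptors act through SMAD1, SMAD5 and SMAD4 to induce them. Of 30 listed genes of BMP and TGF-β signalling 19 were tested, of which 5 rose and 10 fell (37.5% higher and 37.9% lower over all tested genes), with a median log2 fold change of -0.099. SMAD1 had the largest change of the list. It held 0.176, 0.197 and 0.0319 CPM in OBF1 shRNA libraries, against 3.97, 3.45 and 4.19 CPM in control libraries, and was named after its values were seen (edgeR adjusted p = 1.91e-11). SMAD4, the common partner, fell by 0.64 (SE 0.036) on the log2 scale. The ligand gene BMP7 was 2.33-fold lower, at 149 ± 3.21 CPM in OBF1 shRNA and 346 ± 7.73 CPM in control libraries (SD, n = 3 each). The TGF-β receptors parted: TGFBR2 rose by 1.19 (SE 0.044) and TGFBR1 fell by 0.73 (SE 0.041). Among 12 transcription factors known to act on ID genes, 10 were tested, of which 4 rose and 5 fell, with a median of -0.060. RUNX3 rose by 0.49 (SE 0.027), while its relative RUNX1 fell by 0.75 (SE 0.047), CEBPB by 1.15 (SE 0.071) and FOXO1 by 0.64 (SE 0.032).

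Genes listed as targets of E proteins in B cells were called in both directions, as genes were over the whole table (37.5% higher and 37.9% lower). Of 27 listed, 22 were tested; 12 rose and 10 fell, with a median log2 fold change of 0.24, and the list contains POU2AF1, the hairpin's target. PTPN6, the SHP-1 phosphatase that TCF3 is known to lower in Burkitt lymphoma, had the largest change among them, at 83.4 ± 1.02 CPM in OBF1 shRNA and 3.37 ± 0.369 CPM in control libraries (SD, n = 3 each). CCND3, the D-type cyclin known to be raised by TCF3 there, rose by 0.72 (SE 0.032) on the log2 scale. EBF1 and PAX5, the B lineage factors that act with TCF3, each rose by 0.51 (SE 0.052 for EBF1 and 0.026 for PAX5). CIITA, the class II transactivator, rose by 1.73 (SE 0.025), and the chemokine receptor gene CXCR4 fell by 1.65 (SE 0.028). TCF7L2, given for its confusable name, was the one tested gene of 4 TCF/LEF factors and was not called, at 4.78 ± 0.241 CPM in OBF1 shRNA and 4.10 ± 0.179 CPM in control libraries (SD, n = 3 each, edgeR adjusted p = 0.055).

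**Figure D4:**
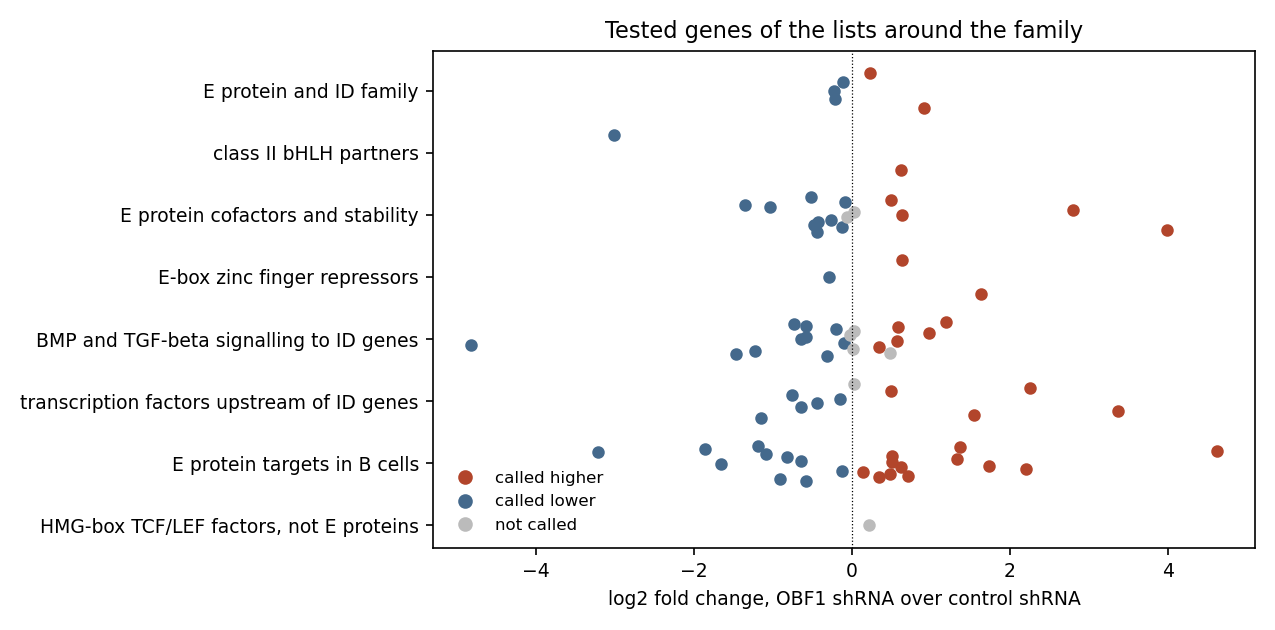
Log2 fold change, OBF1 shRNA over control shRNA, of each tested gene of the family and of 7 lists around it; red points were called higher, blue lower, and grey not called. The family lies close to zero apart from ID2 at 0.92, while cofactors, BMP and TGF-β genes and E protein targets spread from -4.82 (SMAD1) to 4.63 (PTPN6).

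The profiles over the 6 libraries most like each member's were sought among 9606 genes averaging 5 CPM or more, by the root mean square difference of centred log2 CPM. For TCF4 these were PIK3R1, HELLS and DCAF11, with differences of 0.0057 to 0.014. For TCF12 they were CNOT8, TLE3 and UBE3A, with differences of 0.0086 to 0.011. The nearest to ID2 were CLECL1, CHMP6 and ARID5A, with differences of 0.016 to 0.020, and the nearest to TCF3 were ZC3H3, RABL6 and ATRAID, with differences of 0.016 to 0.018. The nearest to ID3 were RITA1, SSNA1 and ADRM1, less close at 0.023 to 0.031. With libraries of 2 groups, such likeness reflects mostly the size of the group difference.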

How the data were processed

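RNA of 3 OBF1 shRNA and 3 control shRNA libraries was sequenced after a stranded poly(A) preparation, per the labels' protocols. The authors deposited raw, unnormalised read counts per gene for each library, with a gene length. The builds hg19 and mm9 are listed in the submitters' processing notes, with aligner, counter, annotation and strand setting not given in the sources used here. Symbols came from a RefSeq gene table of GRCh38.p14, which matched 23308 of 23459 rows. All 6 count columns were used and 0 columns were left out.

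Genes were kept with filterByExpr (minimum count 10, total 15) in edgeR 4.0.16 under R 4.3.3, scaled by TMM and compared with the quasi-likelihood F test on all libraries, with Benjamini-Hochberg adjustment over all 12010 genes and a threshold of 0.05. The standard error is the log2 fold change divided by the square root of F. TPM and RPKM used the deposited lengths. Among the named genes, LILRA4, NKG7, LMO2, NHLH1 and SMAD1 were under the minimum count in their lower group. They passed the filter only through the other group, so their calls are not independent of the filter. Alternatives were DESeq2 1.42.0, voom in limma 3.58.1, other scalings and filters, the replicate block and leaving out each library.

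The members and lists were chosen with earlier results of these data known. Named genes are the members and ID4, up to 4 genes per list with the smallest p-values, CCND3, PTPN6, EBF1, PAX5, LMO2 and ZEB2, the 3 nearest profiles of each member, and, named after their values were seen, SMAD1, MSC and the single cell type markers. Markers of myeloid cells (10 genes) summed to 2.01 to 2.23 CPM in OBF1 shRNA and 2.30 to 2.47 CPM in control libraries. The sum of 1 further marker list is not reported here. Chi-square per degree of freedom between libraries of 1 group was 1.89 to 3.28, so none looked like 1 library deposited again.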

Additional observations from a re-analysis of the deposited data

How the results depend on the processing

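TCF4, TCF12, ID2 and ID3 kept their direction and their call in all 14 alternatives, with log2 fold changes of 0.12 to 0.25, -0.33 to -0.20, 0.81 to 0.95 and -0.32 to -0.13. TPM is not among these 14. In TPM the TCF4 groups overlapped, and the log2 ratio of their means was 0.036. The TCF3 groups, which overlapped in CPM, did not overlap in TPM. TCF3 kept its direction in all 14, at -0.22 to -0.058, and its call in 11. With 1 library left out its value ranged from -0.15 to -0.058, and the calls lost were those without OBF1 shRNA replicate 1 (-0.096), OBF1 shRNA replicate 2 (-0.091) or control shRNA replicate 2 (-0.058); fewer samples enter these fits. Calls over all genes numbered 9058, with extremes of 8344 (DESeq2) and 9547 (no count filter). With library sizes alone the calls became 3476 higher and 5778 lower, against 4508 higher and 4550 lower with TMM. List counts stayed within 1.5 times except that NHLH1 left the class II list under the 1 CPM filter and TCF7L2 was called higher without OBF1 shRNA replicate 1. Deviations from the group means correlated at 0.028, -0.17 and -0.11 for same-numbered libraries. For differently numbered libraries the correlations ran from -0.10 to 0.20. With 3 libraries per group these values cannot tell whether same-numbered libraries shared a culture or preparation. The replicate block gave 8759 calls and changed no call of a member, with TCF3 at -0.11 (edgeR adjusted p = 0.0449). ID1 has too few counts for a comparison at this depth: without the count filter it was not called (edgeR adjusted p = 0.431).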
